A study of Homo sapiens with 6 samples.

Results

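The integrated stress response and the unfolded protein response were examined through 10 genes, ATF4, ATF3, DDIT3, XBP1, ASNS, TRIB3, CHAC1, SESN2, HERPUD1 and ERN1, out of 58174 genes in the deposited expression table. They were taken by symbol after the Ensembl identifiers had been matched to names, and all 10 were found. RNA-seq had been carried out on AGS cells, a human gastric adenocarcinoma cell line listed with stomach as its tissue, to compare cells with and without depletion of FTO, an enzyme that removes the methyl group of m6A from RNA. The 3 si-NC libraries carry the genotype wild type and the 3 si-FTO libraries the genotype FTO-/-, although the names of the groups point to small interfering RNA, which lowers a transcript and leaves the gene in place. No further agent is listed for either group.

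Each group was represented by 1 value per gene, the authors' mean in TPM, a transcript abundance that corrects for gene length and library total. The spread between libraries was therefore not known, no difference below has a replicate check or a test, and the depth of the libraries was unknown. A log2 ratio below is the si-FTO mean over the si-NC mean, each with a pseudocount of 1 added, which understates the difference of genes with low values. A gene was counted as higher or lower where this ratio was at least 1 in size, a fold of 2, and genes with a mean of at least 0.5 TPM in at least 1 group were compared. All 10 genes passed this filter, and each also had at least 5 TPM in at least 1 group.

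The integrated stress response joins several kinases that phosphorylate the translation factor eIF2, each sensing a different stress such as amino acid shortage, viral RNA, heme deficiency or misfolded protein in the endoplasmic reticulum (ER). General translation then falls while the mRNA of the transcription factor ATF4 is translated more, and ATF4 switches on genes for amino acid supply, redox balance and, when stress persists, cell death. The unfolded protein response adds the ER sensors IRE1 and ATF6, which raise chaperones and degradation of misfolded proteins. Secretory cells of the stomach rely on it because they make large amounts of mucin and enzyme. Both responses act largely on translation, protein phosphorylation and splicing, which gene-level mRNA values do not measure.

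FTO itself, the depleted gene, had a mean of 33.1 TPM in the si-NC group and 7.27 TPM in the si-FTO group, a log2 ratio of -2.05. The direction is that of the group names, and FTO mRNA was still detected in the group whose genotype is given as FTO-/-.

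The labelled cell type was checked against marker lists, and the 2 groups differed widely in them. Of 15 epithelial markers, 10 could be compared, of which 8 were higher and 1 was lower in the si-FTO group, with a summed level of 71.2 TPM in the si-NC group and 5389 TPM in the si-FTO group. The most abundant gene of a list, here and below, is the gene with the highest average of both group means. KRT8, a keratin of simple epithelia and the most abundant in this sense, was at 10.8 and 3139 TPM in the si-NC and si-FTO groups. Its partner KRT18 was at 52.1 and 1851 TPM and made up most of the si-NC sum, KRT7 was listed at 0 and 253 TPM, and KRT19 was listed at 0 and 0.13 TPM. EPCAM, a surface protein of epithelial cells, had only 1.22 and 0.113 TPM, and CDH1, E-cadherin, the gene that was lower, 3.67 and 0.685 TPM. Of the 12 gastric markers, 5 could be compared and 4 of these were lower, with sums of 89.2 and 3.77 TPM. CLDN18 lay within the fold at 0.627 and 0.759 TPM, and the 4 lower genes were the transcription factors GATA4, GATA6, SOX2 and CDX2. GATA4, the most abundant of them, was at 36.96 TPM in the si-NC group and listed at 0 in the si-FTO group, and the stomach products TFF1, GKN1, GKN2 and PGC were listed at 0 in both.

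Among 12 neuronal-type markers, 6 were lower and none higher in the si-FTO group, and their sum was 469 TPM in the si-NC group and 20.3 TPM in the si-FTO group, led by UCHL1 at 303 and 0.0204 TPM, with NEFL listed at 0 in the si-FTO group. Fibroblast markers summed to 17.0 and 45.6 TPM over 8 genes, led by COL1A1, with 2 higher and 2 lower. Under median-ratio scaling 1 of them was lower and under quantile normalization none was, with 2 higher in each. PTPRC, a defining marker of leukocytes, was listed at 0 in both groups. Of the 4 endothelial markers found, CDH5 was the most abundant and stood at 0.00827 and 40.9 TPM, while the list summed to 0.42 and 41.0 TPM. KRT8, KRT18 and KRT7 were thus far lower in the si-NC mean, while EPCAM and CDH1 were low in both means and higher in the si-NC mean, and GATA4 was above 0 only there. In these bulk means, fewer cells of a kind and less RNA per cell cannot be told apart, and neither can FTO depletion and any other difference between the cells behind the 2 groups. Whether both means come from the same cell line is in doubt from these values and was not tested, and every ratio below is subject to that doubt. The part of these markers in the results below was not tested.

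Among the 10 stress response genes, 2 were higher in the si-FTO group (ATF3 and TRIB3), 4 were lower (ASNS, SESN2, CHAC1 and ERN1) and 4 lay within the fold (ATF4, HERPUD1, XBP1 and DDIT3). Of all 20493 genes compared, 2340 (11.4%) were higher and 3492 (17%) were lower. This balance depends on the scaling, with 2786 higher and 2887 lower under median-ratio scaling and 2803 and 2902 under quantile normalization. Among the 12967 genes with at least 5 TPM in a group, where the 10 genes also belong, 1730 (13.3%) were higher and 2254 (17.4%) were lower. With only 10 genes, each of them makes up 10% of the list, and the excess over the background was not tested.

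The median log2 ratio of the 10 genes was -0.52, against -0.20 for all genes compared, so that in the main setting a shift of -0.20 is shared with the table as a whole. Relative to that shift, the ratios ran from -2.11 for ASNS to 2.29 for ATF3, with HERPUD1 the closest to it at -0.12. Thus 6 of the 10 genes lay below the common shift and 4 above it, and the list as a whole moved in no single direction. The summed level of the 10 genes was 1419 TPM in the si-NC group and 1047 TPM in the si-FTO group, of which ATF4 made up the largest part in both.

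**Figure D1:**
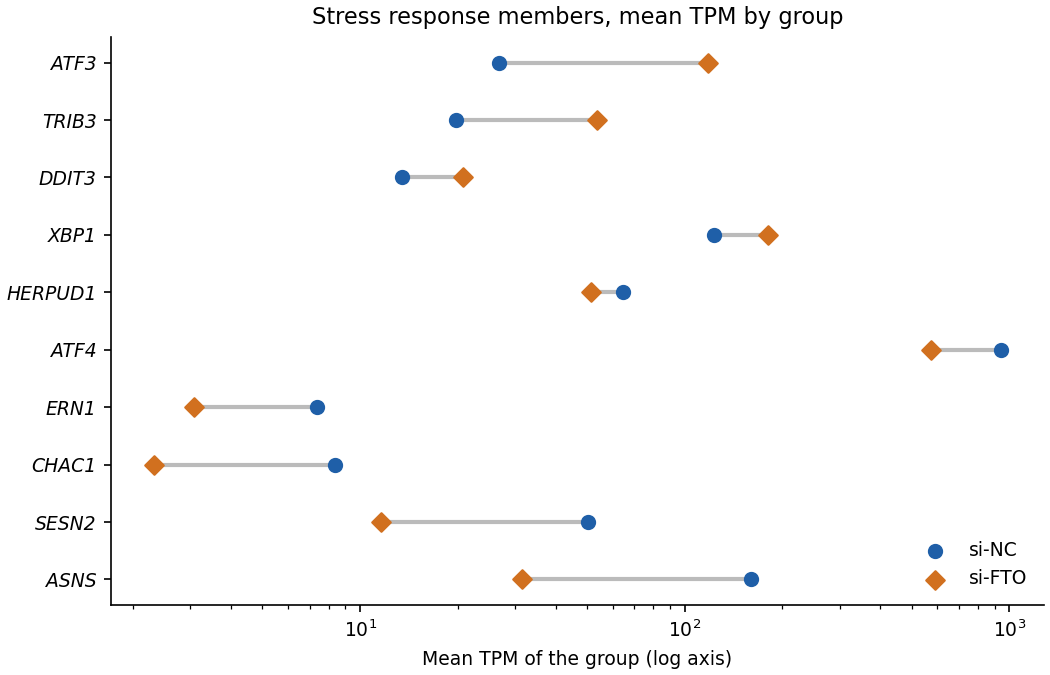
Authors' mean TPM of each of the 10 genes (log axis) in the si-NC group (circles) and the si-FTO group (diamonds), ordered by log2 ratio. ATF3 and TRIB3 at the top have the higher si-FTO mean by more than the fold, and ERN1, CHAC1, SESN2 and ASNS have the lower.

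The order of the levels also differed between the groups. ATF4 was the most abundant of the 10 genes in both. ASNS stood at position 2 in the si-NC group and at position 6 in the si-FTO group, while ATF3 stood at position 6 in the si-NC group and at position 3 in the si-FTO group. XBP1 was at positions 3 and 2, and CHAC1 and ERN1 took the last places in both groups, in opposite order. Since no spread was available, neighbours in these orders cannot be ranked beyond their error.

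**Figure D2:**
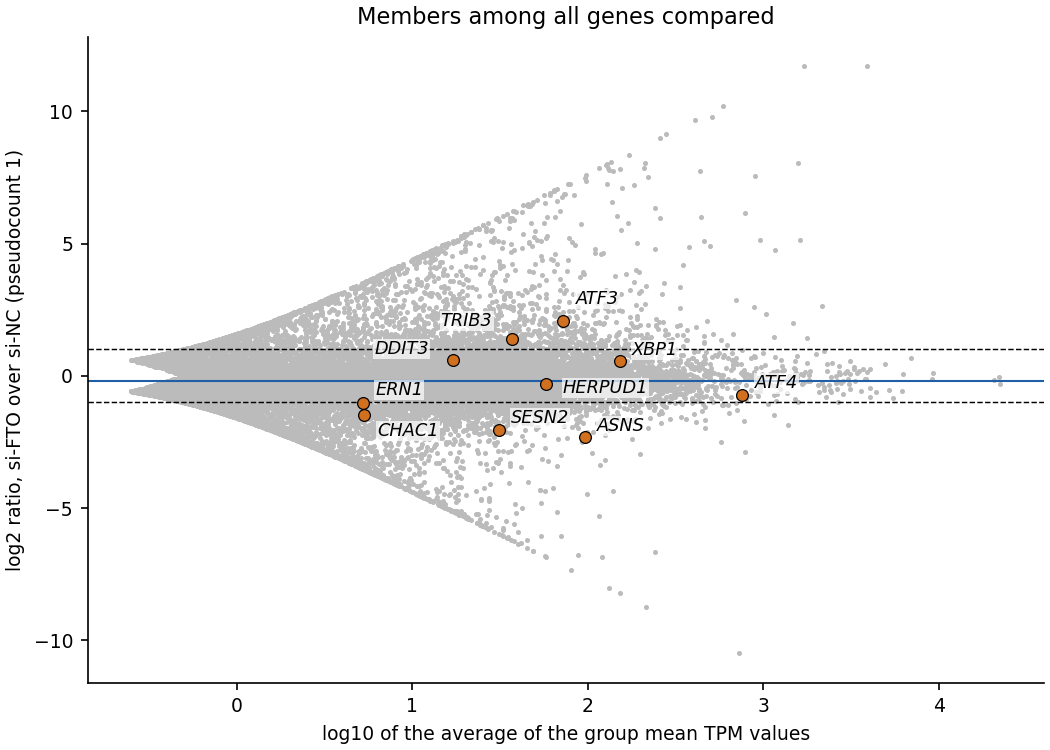
Each grey point is a gene compared, placed by the average of its group means (log10 TPM) and by its log2 ratio of si-FTO over si-NC, with the 10 stress response genes in orange. Dashed lines mark the fold of 2 and the solid line the median of all genes, -0.20; the 10 genes lie on both sides of it.

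The regulatory letters upstream of the genes are shown first, because ATF4 and the ER factors act through short DNA elements. RefSeq promoter windows on GRCh38.p14, each reaching from 250 bases before a transcription start to 50 bases after it, were found for all 10 genes, 17 windows in all. They were searched on both strands for the C/EBP-ATF response element (CARE, TGATGNAA), which ATF4 binds together with C/EBP proteins, for the ER stress elements ERSE (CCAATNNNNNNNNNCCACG) and ERSE-II (ATTGGNCCACG), bound by ATF6 and XBP1, and for the unfolded protein response element (UPRE, TGACGTGG). The ERSE-II letters ATTGG are the reverse complement of the CCAAT of ERSE. Of all 35116 windows, 3.62% held CARE, 0.0769% ERSE, 0.0541% ERSE-II and 0.729% UPRE.

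CARE was found upstream of 4 of the 10 genes, and these 4 did not share a direction: ATF3 was higher, ASNS and CHAC1 were lower and HERPUD1 lay within the fold. The stretches below are written along the gene's strand, with the matched letters in capitals. In ASNS, on the minus strand at chr7:97872429-97872516, the match begins 68 bases before the start. In ATF3, on the plus strand at chr1:212565176-212565263, it begins 191 bases before the transcription start that its window surrounds. In CHAC1, on the plus strand at chr15:40953222-40953309, the match lies on the opposite strand, so that its reverse complement is in capitals, 209 bases before the start. The same holds for HERPUD1, on the plus strand at chr16:56931926-56932013, 176 bases before the start.
ASNS: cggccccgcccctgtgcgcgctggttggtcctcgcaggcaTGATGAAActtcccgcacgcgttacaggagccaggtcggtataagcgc
ATF3: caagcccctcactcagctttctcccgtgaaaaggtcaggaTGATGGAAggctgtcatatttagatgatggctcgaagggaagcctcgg
CHAC1: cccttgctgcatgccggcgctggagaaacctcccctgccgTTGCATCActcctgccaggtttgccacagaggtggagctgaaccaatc
HERPUD1: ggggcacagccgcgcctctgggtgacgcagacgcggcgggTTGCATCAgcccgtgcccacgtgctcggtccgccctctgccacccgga

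The ER stress elements were found in 2 of the 10 genes, both within the fold. XBP1 holds ERSE 52 bases before its start, in the stretch chr22:28800563-28800661 on the minus strand, and HERPUD1 holds ERSE-II 117 bases before its start, at chr16:56931985-56932075 on the plus strand, so that HERPUD1 carries a CARE match and an ER element in the same window. UPRE letters were not in the windows of the 10 genes. These matches describe letters only, and no binding was measured.
XBP1: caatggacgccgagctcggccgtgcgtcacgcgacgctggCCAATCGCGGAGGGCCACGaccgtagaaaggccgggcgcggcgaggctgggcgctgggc
HERPUD1: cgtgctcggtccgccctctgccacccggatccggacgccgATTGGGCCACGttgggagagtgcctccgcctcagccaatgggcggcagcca

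Across the table, 340 genes compared held CARE in a window, of which 17.6% were higher and 23.8% lower, against 11.7% and 18.3% of the 12420 genes compared that have a window. Their median log2 ratio was -0.27, against -0.21. Genes with the CARE letters were thus somewhat more often past the fold in both directions, as a description without a test. Genes with UPRE letters numbered 148, with 12.8% higher and 18.2% lower and a median of -0.09. ERSE and ERSE-II letters were each found for 16 genes compared, with medians of 0.46 and -0.35, 12.5% higher for each and 12.5% and 18.8% lower.

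ERN1 encodes IRE1, the ER membrane kinase and endoribonuclease that senses unfolded protein and starts the splicing of XBP1 mRNA. It lies on the minus strand at chr17:62116440-62208179 (GRCh37, as the other gene positions below). Its mean was 7.35 TPM in the si-NC group and 3.07 TPM in the si-FTO group, a log2 ratio of -1.04. This places ERN1 just past the fold, with 16.2% of all genes compared having a lower ratio, and it was no longer past the fold under median-ratio scaling (-0.86) or quantile normalization (-0.74).

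XBP1, the transcription factor activated by IRE1, lies on the minus strand at chr22:29190543-29196585. It was at 123 TPM in the si-NC group and 180 TPM in the si-FTO group, a log2 ratio of 0.54, and so within the fold. Sensor and substrate thus had ratios of opposite sign. The level of XBP1 sums the unspliced and the spliced mRNA, and the share of the active form cannot be read from it.

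The intron that IRE1 removes is shown because it decides which protein the mRNA makes. It is 26 bases long and lies in exon 4 of the 5 exons of the unspliced transcript, inside the coding sequence, where it takes up coding bases 494 to 519. With cuts at the IRE1 site letters CNGCNG it spans chr22:29192115-29192140 on the minus strand of GRCh37, 1 base from the position that GENCODE draws, which leaves the same spliced sequence. The transcript of 1850 bases holds 2 pairs of these letters 26 bases apart, and the pair used is the pair at the annotated intron. The stretch chr22:29192093-29192162 follows in the sense of the mRNA, with the intron in capitals. The reading frame has 261 codons with the intron and 376 codons without it.
XBP1: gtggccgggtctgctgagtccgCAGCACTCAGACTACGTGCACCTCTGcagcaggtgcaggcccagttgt

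ATF4, the transcription factor at the centre of the integrated stress response, lies on the plus strand at chr22:39915700-39918688. It had the highest level of the 10 genes, 945 TPM in the si-NC group and 575 TPM in the si-FTO group, at positions 131 and 214 among all genes compared. The log2 ratio of -0.72 was within the fold of 2. It was past a fold of 1.5, but not under median-ratio scaling (-0.50). ATF4 is regulated mainly in translation, so its mRNA level is no measure of its protein. Processed copies of ATF4 elsewhere in the genome were much lower, with ATF4P3 at 4.57 and 2.44 TPM and ATF4P4 at 0.569 and 0.224 TPM, and reads they share with ATF4 could not be told apart.

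ATF3, a transcription factor that ATF4 induces and that also answers to many other stimuli, lies on the plus strand at chr1:212738676-212794119. Its mean was 26.8 TPM in the si-NC group and 118 TPM in the si-FTO group. This was the largest upward ratio of the 10 genes, 2.09 on the log2 scale, and 4.42% of all genes compared had a higher one.

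DDIT3 encodes CHOP, a C/EBP-family factor that promotes cell death when ER stress persists, and lies on the minus strand at chr12:57910371-57915520. It was at 13.5 TPM in the si-NC group and 20.7 TPM in the si-FTO group, a log2 ratio of 0.58, within the fold of 2. DDIT3 shares 355 of its 1307 annotated exonic bases (27.2%) with MARS1 on the opposite strand, a gene at 241 and 142 TPM. MBD6, also on the opposite strand, shares 4.44% and was at 26.2 and 25.6 TPM. The library kit keeps strand, but whether strand was used in counting is not given in the sources used here. The DDIT3 values are therefore uncertain by the reads of MARS1 and MBD6. A protein-coding gene on the same strand, for which the table has no row, shares 8.03%. Reads from it could not be told apart from those of DDIT3.

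**Figure D3:**
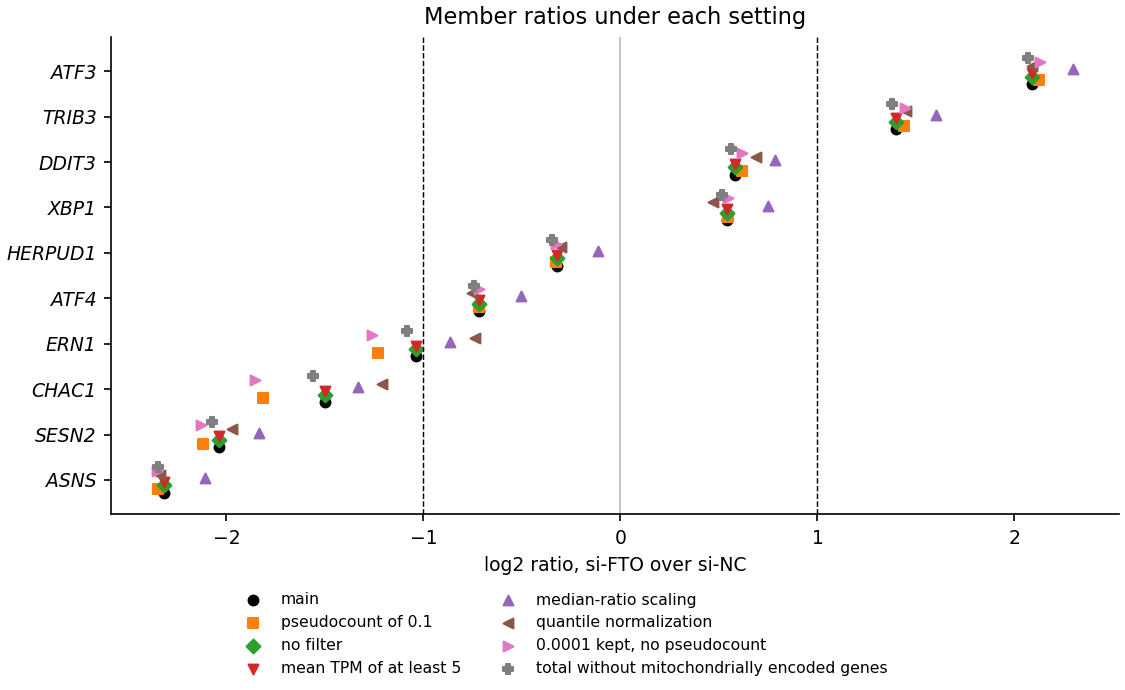
Log2 ratio of si-FTO over si-NC for each of the 10 genes under the main setting and 7 alternatives, with dashed lines at the fold of 2. No ratio changes sign, which only the scalings and the total without mitochondrially encoded genes could bring about. ERN1 is the gene whose points fall on both sides of the fold.

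The targets of ATF4 did not move together. ASNS, asparagine synthetase, the enzyme that makes asparagine and a classical target of ATF4 in amino acid shortage, lies on the minus strand at chr7:97480989-97501854. It was at 160.5 TPM in the si-NC group and 31.4 TPM in the si-FTO group, a log2 ratio of -2.32. This was the largest downward ratio of the 10 genes, with 4.55% of all genes compared having a lower one, and ASNS moved from position 874 to position 4932 in the order of levels. A noncoding RNA of the current annotation, for which the table has no row, shares 49.3% of the exonic bases of ASNS on the same strand, and reads from it could not be told apart from those of ASNS. The pseudogene ASNSP1 was at 1.04 TPM and listed at 0.

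SESN2 encodes sestrin 2, a leucine sensor that holds back mTORC1 and is induced by both ATF4 and p53, and lies on the plus strand at chr1:28586029-28609002. Its mean was 50.5 TPM in the si-NC group and 11.6 TPM in the si-FTO group, a log2 ratio of -2.04. CHAC1, a glutathione-degrading enzyme downstream of ATF4 and CHOP, lies on the plus strand at chr15:41245160-41248710. It was at 8.37 TPM in the si-NC group and 2.31 TPM in the si-FTO group, a log2 ratio of -1.50. ASNS, SESN2 and CHAC1 were therefore all lower by more than the fold, at very different starting levels.

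TRIB3, a pseudokinase that CHOP and ATF4 induce and that restrains both ATF4 and the kinase AKT, went the other way. It lies on the plus strand at chr20:343479-378203, and its mean was 19.8 TPM in the si-NC group and 53.8 TPM in the si-FTO group, a log2 ratio of 1.40. Only 7.74% of all genes compared had a higher ratio. Of the ATF4 targets among the 10 genes, TRIB3 and ATF3 were thus higher and DDIT3 had a ratio above 0 within the fold, while ASNS, SESN2 and CHAC1, like ATF4 itself, had ratios below 0.

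HERPUD1, an ER membrane protein of the degradation machinery for misfolded proteins, lies on the plus strand at chr16:56966054-56978776. It was at 64.4 TPM in the si-NC group and 51.4 TPM in the si-FTO group, a log2 ratio of -0.32, close to the common shift. Of the 10 genes, HERPUD1 thus lay nearest to the table as a whole.

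The genes around these 10 were described from lists of the pathway, 151 genes in all, of which 147 could be compared. Of these, 27 (18.4%) were higher and 13 (8.84%) were lower, with a median log2 ratio of 0.11. Over all genes compared these shares were 11.4% higher and 17% lower, and at 5 TPM or more 13.3% and 17.4%. The list of immediate early genes, which are not specific to these stress responses, alone supplied 9 of the 27 higher genes and 1 of the 13 lower. The balance over all genes was nearly even under either scaling, and the difference of the lists from it was not tested. The counts of each list below stand against the same background. The lists differed in direction among themselves. The markers described above differed between the groups at the same time, and their part in the list values was not tested.

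**Figure D4:**
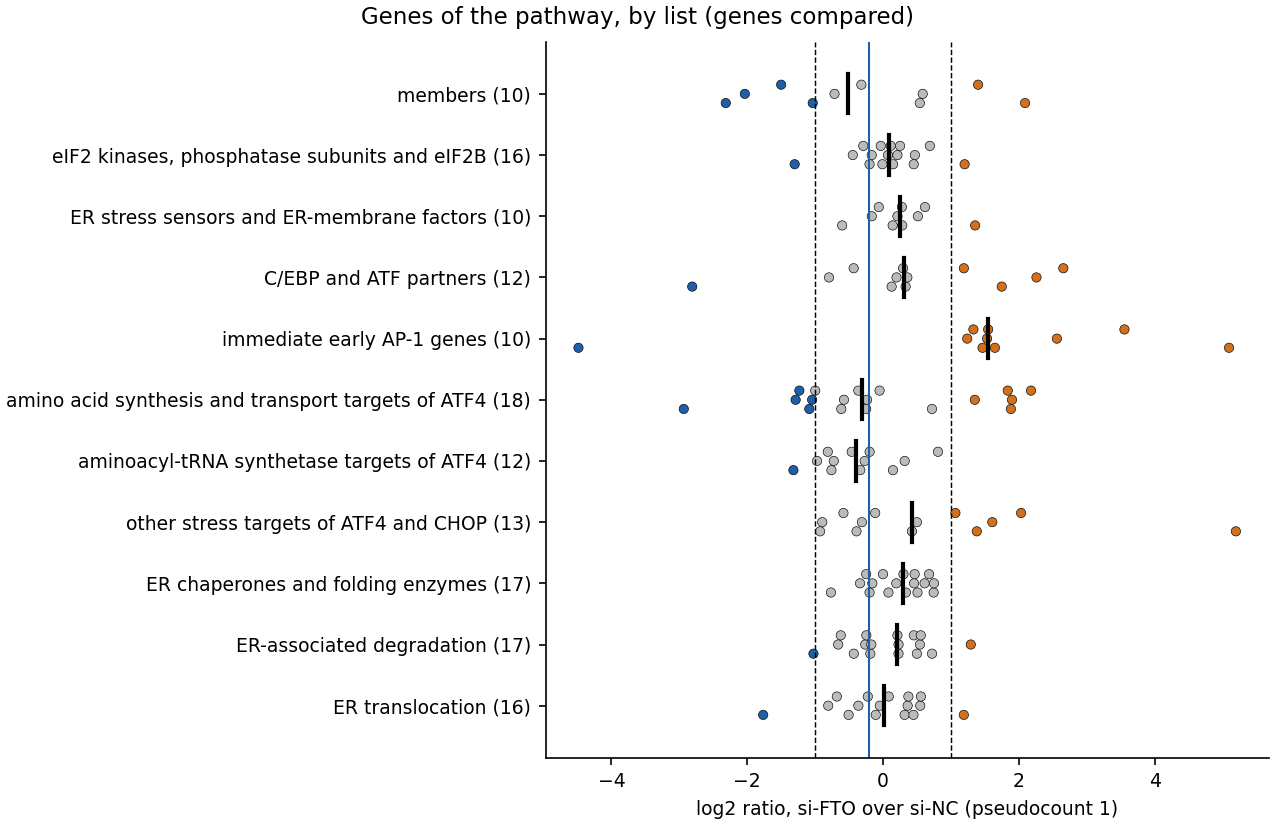
Log2 ratios of si-FTO over si-NC for the genes compared in each list of the pathway (number in brackets), orange where higher and blue where lower by the fold of 2, with a black bar at the median of the list. The solid blue line is the median of all genes, -0.20; the list of immediate early AP-1 genes, which also holds EGR1, IER2 and IER3, stands to the right of it except for JUN, and the ER chaperones stay within the dashed fold lines.

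Upstream of ATF4, the list of eIF2 kinases, phosphatase subunits, eIF2 and eIF2B, which also holds OMA1 and DELE1, had 16 genes. Of these, 1 was higher and 1 lower, with a median of 0.09. The median became 0.30 under median-ratio scaling, where 13 of the 16 ratios were above 0. It was 0.05 under quantile normalization, with 11 ratios above 0, and 0.06 with the total without mitochondrially encoded genes. EIF2S3, the gamma subunit of eIF2 and the most abundant of them, was at 369 and 439 TPM in the si-NC and si-FTO groups. PPP1R15B, which directs a phosphatase to eIF2 in unstressed cells, was at 53.9 and 125 TPM (log2 ratio 1.20), and EIF2B3, a subunit of the exchange factor that phosphorylated eIF2 blocks, was at 88.6 and 35.3 TPM (log2 ratio -1.30). The 4 kinases, chosen for naming after their values were seen, lay within the fold: EIF2AK1 (HRI) had a log2 ratio of 0.11, EIF2AK2 (PKR) 0.69, EIF2AK3 (PERK) 0.21 and EIF2AK4 (GCN2) 0.15. PPP1R15A (GADD34), the stress-induced paralog of PPP1R15B, also named after its values were seen, was at 24.3 and 24.2 TPM.

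Among the ER stress sensors and ER-membrane factors, 10 of 12 genes could be compared, with 1 higher and none lower and a median of 0.24, or 0.44 under median-ratio scaling. RTCB, the ligase that joins the ends of XBP1 mRNA after the cut by IRE1 and the most abundant gene of the list, was at 245 and 161 TPM, a log2 ratio of -0.60. CREB3L4, an ER-anchored transcription factor, was at 11.4 and 30.6 TPM, a log2 ratio of 1.35. ATF6, named after its value was seen, had a ratio of 0.28. Among the sensors of the unfolded protein response ERN1 was thus past the fold and EIF2AK3 and ATF6 were not. Under median-ratio scaling (-0.86) or quantile normalization (-0.74), ERN1 was not past it either.

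The next list held C/EBP and ATF genes and other partners of ATF4 and ATF3 with a leucine zipper, among them NFE2L2, BACH1, BATF3 and JDP2. Of 12 genes compared, 4 were higher and 1 was lower, against 11.4% and 17% of all genes compared, with a median of 0.31, or 0.52 under median-ratio scaling. CEBPB, the most abundant, was at 21.9 TPM in the si-NC group and 108.5 TPM in the si-FTO group (log2 ratio 2.26). CEBPD was at 4.01 and 30.5 TPM (2.65) and ATF1, a CREB-family factor, at 23.7 and 82.0 TPM (1.75), while BATF3, an AP-1 factor of the BATF family, was at 15.1 and 1.30 TPM (-2.81). CEBPG, another C/EBP gene, named after its value was seen, had a ratio of -0.80, so the C/EBP genes did not share a direction.

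The list of immediate early genes, with which ATF3 shares its induction by growth factors and stress, holds 7 AP-1 genes of the JUN and FOS families and EGR1, IER2 and IER3, and all were past the fold. Of these 10 genes, 9 were higher and 1 was lower, against 11.4% and 17% of all genes compared, with a median of 1.54, or 1.75 under median-ratio scaling. FOS, the most abundant, was at 25.0 TPM in the si-NC group and 888 TPM in the si-FTO group (log2 ratio 5.09), JUNB at 27.8 and 337 TPM (3.55) and IER3, an early response gene, at 14.3 and 89.4 TPM (2.56). JUN, the partner of both FOS and ATF3, was the exception, at 190.5 and 7.55 TPM (-4.49). ATF3 thus had the direction of FOS and JUNB and the opposite direction of JUN.

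The amino acid targets of ATF4 were divided. Of 18 genes, 5 were higher and 5 lower, with a median of -0.31. SLC7A5, the light chain of the leucine transporter LAT1 and the most abundant gene of the list, was at 181 TPM in the si-NC group and 648 TPM in the si-FTO group (log2 ratio 1.84). CTH, which makes cysteine from cystathionine, was at 19.3 and 90.8 TPM (2.18), SLC38A2, an importer of neutral amino acids, at 103 and 387 TPM (1.90), and SLC6A9, a glycine transporter, at 14.6 and 56.4 TPM (1.88). CBS, the enzyme just before CTH in the same route, was at 187 and 23.6 TPM (-2.93), ALDH1L2, a mitochondrial folate enzyme, at 16.7 and 6.26 TPM (-1.29), and PYCR1, the last step of proline synthesis, at 135 and 56.9 TPM (-1.23). Consecutive enzymes of cysteine synthesis therefore had ratios of opposite sign.

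A division of this list into enzymes and transporters was made after the values were seen. Of the 10 enzymes, 9 had a ratio below 0 and 5 were lower by the fold, with a median of -0.81. Of the 8 transporters, 5 had a ratio above 0 and 4 were higher by the fold, with a median of 1.03. SLC1A5, the glutamine transporter ASCT2, named after its value was seen, went with the enzymes at 445 and 222 TPM, a ratio just short of the fold once the pseudocount is added. In the serine pathway, also named after its values were seen, PHGDH was at 420.5 and 203 TPM (-1.05) and PSAT1 at 299 and 140.3 TPM (-1.09), and the next enzyme PSPH lay within the fold at -0.58. PHGDH and PSAT1 are close to the fold, and under median-ratio scaling the lower genes of the list numbered 3, with the median at -0.10. Under quantile normalization and with the total without mitochondrially encoded genes they numbered 6, with medians of -0.32 and -0.34. ASNS thus had the direction of 9 of the 10 other enzymes.

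**Figure D5:**
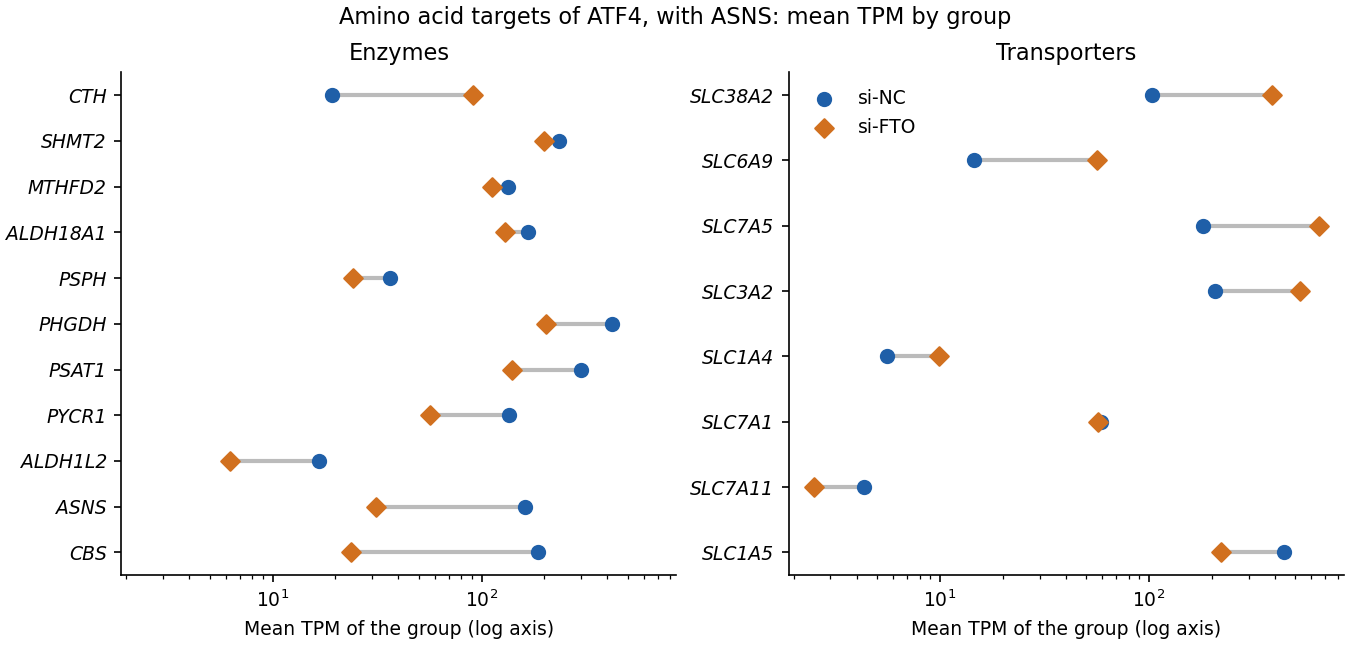
Authors' mean TPM (log axis) in the si-NC group (circles) and the si-FTO group (diamonds) for ASNS and the 10 other enzymes (left) and the 8 transporters (right) of the amino acid list, ordered by log2 ratio. Among the enzymes CTH alone has the higher si-FTO mean, while SLC38A2, SLC6A9, SLC7A5 and SLC3A2 lead the transporters with the higher si-FTO mean.

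Of 12 aminoacyl-tRNA synthetases under ATF4, none was higher and 1 was lower, with a median of -0.40. Of them, 9 had a ratio below 0 and 8 a ratio below the common shift. Under median-ratio scaling 1 was higher and the median was -0.19, and under quantile normalization or with the total without mitochondrially encoded genes 2 were lower. IARS1, the most abundant, was at 354 and 201 TPM, and NARS1, which charges the tRNA of asparagine, was at 140.3 and 55.6 TPM (log2 ratio -1.32). ASNS and NARS1, which make asparagine and load it onto tRNA, were thus both lower in the si-FTO group. CARE letters were in the windows of 7 of the 10 synthetases that have a window, against 4.46% of all genes with a window, and these 7 had 3 ratios above 0 and 4 below.

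Other stress targets of ATF4 and CHOP were higher or within the fold. Of 13 genes compared, 5 were higher and none lower, with a median of 0.42, or 0.63 under median-ratio scaling. EIF4EBP1, a brake on cap-dependent translation and the most abundant of them, was at 356 and 191 TPM (log2 ratio -0.90). GDF15, a stress cytokine, was at 0.616 TPM in the si-NC group and 58.1 TPM in the si-FTO group (5.19), DDIT4, an inhibitor of mTORC1, at 104.5 and 430.4 TPM (2.03), and NUPR1, a small stress-induced chromatin protein, at 1.58 and 6.85 TPM (1.61). DDIT4 and SESN2, which both restrain mTORC1, therefore had ratios of opposite sign.

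The ER arm of the response was followed through 3 lists. None of 17 ER chaperones and folding enzymes was past the fold in either direction. Of them, 11 had a ratio above 0 and 14 a ratio above the common shift, with a median of 0.30, or 0.51 under median-ratio scaling. CALR, calreticulin, the most abundant, was at 660 TPM in the si-NC group and 1106 TPM in the si-FTO group, HSP90B1 (GRP94) had the largest ratio, 0.75, at 343 and 577 TPM, and CRELD2 the smallest, -0.77, at 52.9 and 30.7 TPM. HSPA5 (BiP), the chaperone that holds the sensors inactive, named after its value was seen, was at 309 and 427 TPM, a ratio of 0.46. ERSE letters were found for 6 of the 16 chaperones with a window, against 0.0916% of all genes with a window, and 4 of these 6 had a ratio above 0. ERSE-II letters were found for 2 of the 16, SDF2L1 (-0.34) and HYOU1 (-0.16). Both had a ratio below 0, but HYOU1 lay above the common shift.

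ER-associated degradation, the machinery HERPUD1 belongs to, held 17 genes with 1 higher, 1 lower and a median of 0.21, or 0.42 under median-ratio scaling. VCP, the ATPase that pulls proteins out of the ER membrane and the most abundant, was at 220 and 258 TPM. EDEM2, which trims mannose from misfolded glycoproteins, was at 20.6 and 51.9 TPM (log2 ratio 1.29), and FAF2, a membrane adaptor of VCP, was at 104 and 50.4 TPM (-1.03). FAF2 is only just past the fold, and under median-ratio scaling none of the list was lower. HERPUD1, with its ratio of -0.32, lay within the range of these genes.

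ER translocation, the channel and signal peptidase that XBP1 supplies in secretory cells, held 16 genes with 1 higher and 1 lower and a median of 0.02, which became 0.23 under median-ratio scaling and -0.01 when the total was taken without mitochondrially encoded genes. SSR4, the most abundant, was at 335 and 311 TPM. SSR1, another subunit of the translocon-associated complex, was at 30.1 and 69.8 TPM (log2 ratio 1.19), and SEC11C, a catalytic subunit of signal peptidase, was at 47.8 and 13.4 TPM (-1.77). The list thus had no common direction, while XBP1 itself had a ratio above 0 within the fold.

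Relatives of the 10 genes were also looked at, since a related gene can carry the same function. Of 9 compared, 1 was higher and 2 were lower, with a median of -0.15 that became 0.06 under median-ratio scaling. TRIB1, a paralog of TRIB3 and the most abundant, was at 74.9 and 67.4 TPM. TRIB2, the other paralog, was at 16.4 and 0.23 TPM (log2 ratio -3.83), opposite to TRIB3. SESN3 was at 12.9 and 2.79 TPM (-1.88), in the direction of SESN2. JDP2, which is related to ATF3, shares its sites and was already counted among the partners above, was at 6.72 and 16.6 TPM (1.19), in the direction of ATF3, and ERN2, the epithelial relative of ERN1, was below the filter in both groups.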

How the data were processed

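Total RNA of AGS cells was sequenced by the authors in 3 si-NC and 3 si-FTO libraries prepared with a stranded kit. The values used are the mean TPM per group as deposited by the authors, 1 column for each group, in which 0.0001 was read as 0. The paper's methods name mapping to hg19 with Bowtie and quantification with RSEM, whereas the submitters' processing notes name HISAT2; versions and annotation are not given in the sources used here. The deposited columns of fold changes, p-values and q-values hold the authors' own comparison and were not used, nor was the list of differential genes. Symbols were matched to 55726 of 58174 identifiers. TPM keeps no depth, so precision per library could not be given.

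Log2 ratios (pseudocount 1), counts past a fold of 2 and list medians were computed with pandas 2.3.3 and numpy 2.4.6 under Python 3.11.15, drawn with matplotlib 3.10.9 and tested on simulated data. Gene positions and the XBP1 transcript came from GENCODE on GRCh37, and promoter windows from RefSeq. Alternatives were another pseudocount, other filters, 2 scalings, another fold, the unread 0.0001 and totals without mitochondrially encoded genes. The 10 genes and the lists were chosen with earlier results of these data known. Named were the 10 genes, FTO and, of each list, the most abundant gene and up to 3 genes with the largest ratios past the fold in each direction, or the largest and smallest ratio where none was. EIF2AK1, EIF2AK2, EIF2AK3, EIF2AK4, PPP1R15A, OMA1, DELE1, ATF6, HSPA5, PHGDH, PSAT1, PSPH, SLC3A2, SLC1A5, CEBPG, NFE2L2, BACH1, EGR1, IER2, SDF2L1, HYOU1, ERN2, MARS1, MBD6, the pseudogenes and the marker examples were chosen for naming after their values were seen. Further values of the leukocyte marker list are not reported here.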

Additional observations from a re-analysis of the deposited data

How the results depend on the processing

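Over 8 alternatives the count of the 10 stress response genes that were higher was 2 each time. DDIT3 (0.58) lay just short of the fold of 1.5, and DDIT3 (0.78) and XBP1 (0.75) would pass it under median-ratio scaling. The count that were lower was 4 in the main analysis, 3 under either scaling and 5 at a fold of 1.5. None of the 10 ratios changed sign, which only the 2 scalings and the total without mitochondrially encoded genes could have brought about. ERN1 came within the fold under median-ratio scaling (-0.86) and quantile normalization (-0.74), and ATF4 passed the lower threshold of a fold of 1.5 (-0.72), which it would not under median-ratio scaling (-0.50). The other 77 of 80 ratios of single genes stayed on their side of the fold. The other filters and the fold of 1.5 use the main ratios unchanged. Under the filters no gene could therefore change side, so part of the 77 was fixed in advance. The median of the 10 genes ran from -0.55 to -0.31. Under quantile normalization it was -0.52, against -0.07 for all genes compared, and under median-ratio scaling -0.31, against -0.03.

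The counts over all genes moved more. At a fold of 1.5, 3855 genes were higher and 6397 lower, since the threshold itself is less strict. With at least 5 TPM required, 2254 were lower, as fewer genes were compared. With 0.0001 kept and no pseudocount, 5348 were lower, and with a pseudocount of 0.1 and 0.0001 still read as 0, 5147 were lower, so most of the move came with the smaller pseudocount. Median-ratio scaling removed a shift of -0.21 between the groups.

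No paired analysis was possible because each group has 1 averaged column, so the library numbers 1 to 3 in the sample titles have no values of their own. For the same reason leaving out each replicate and the replicate block were not run. The depth of the libraries was unknown, so the precision of the low genes CHAC1 and ERN1 could not be given.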
